A study of Mus musculus with 12 samples.

Results

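The genes described here encode subunits of eukaryotic translation initiation factor 3 (eIF3). They were chosen by symbol, as *Eif3a*, *Eif3b*, *Eif3c*, *Eif3d*, *Eif3e*, *Eif3f*, *Eif3g*, *Eif3h*, *Eif3i* and *Eif3m*, and all 10 were found among the 54146 genes quantified in each library. RNA-seq was performed on mouse embryonic stem cells (mESCs) of C57BL/6 strain with the genotype Prdm10F/F; Rosa26-CreERT2, in which both copies of *Prdm10*, a zinc finger transcription factor gene, carry loxP sites and Cre recombinase is held inactive until 4-hydroxytamoxifen (4-OHT, here OHT) is added. Cells exposed for 24 h to 50 nM OHT were compared with cells given an equal volume of ethanol (EtOH), at Day 2 and at Day 4 after induction, with 3 libraries in each of the 4 groups. All groups therefore carry the floxed alleles and the Cre fusion, and the OHT exposure was given to the deleted groups alone, so that an effect of OHT or of active Cre cannot be told apart from one of the deletion. The labels do not say whether the numbered samples were separate cultures, nor whether the cells were 1 clone, so the p-values measure the spread between these samples.

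eIF3 is the largest of the initiation factors. It sits on the small ribosomal subunit, holds the other factors of the pre-initiation complex in place and helps to recruit mRNA. Its subunits are made from separate genes and assemble into one particle. EIF3A and EIF3C act as scaffolds, EIF3B joins EIF3G and EIF3I into a mobile module near the mRNA entry channel, and EIF3E, EIF3F, EIF3H and EIF3M belong to the PCI/MPN core, named after the domains that its subunits share with the proteasome lid and the COP9 signalosome. EIF3D lies at the edge of the particle and can bind the mRNA cap.

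*Eif3b* (ENSMUSG00000056076.13) lies on the plus strand of chromosome 5 at 140419328 to 140443360 (GRCm38). It was the only member on the list of genes that the study placed at PRDM10 binding sites. The other 9 members lie on chromosomes 2, 4, 7, 9, 15 and 19, with *Eif3d*, *Eif3e* and *Eif3h* on chromosome 15 and *Eif3c* and *Eif3f* on chromosome 7. The sequence before the annotated RefSeq start of *Eif3b* is shown because the study reported that PRDM10 acts at this promoter. It described adjacent bound regions there, each with a match to its own consensus motif. Both raised the activity of a reporter when PRDM10 was overexpressed. That motif was not searched here, so matches to the pattern below do not count its sites. The 250 bases before the start (chr5:140419055-140419304, GRCm38.p6, plus strand) are given 5′ to 3′, with capitals marking the single match to the pattern TGGT, any 5 bases, then CC, searched on both strands.
Eif3b: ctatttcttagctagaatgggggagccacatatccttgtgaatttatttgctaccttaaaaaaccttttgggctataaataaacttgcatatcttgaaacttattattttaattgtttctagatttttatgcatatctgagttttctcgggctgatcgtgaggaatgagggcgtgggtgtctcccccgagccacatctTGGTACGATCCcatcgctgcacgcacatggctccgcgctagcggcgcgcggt

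This pattern was searched because the oligonucleotide used by the study to test binding of PRDM10 in gel shift assays holds it, and the mutated oligonucleotide does not. Both 28-base probes are given below, with capitals marking the 8 bases that differ between them. The pattern fixes only some of these 8 bases. It leaves free the G and the first C of GCCC, which are A and T in the MUT probe. The match before *Eif3b* has A and T at these places as well.
WT probe: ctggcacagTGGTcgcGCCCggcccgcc
MUT probe: ctggcacagCAACcgcATTTggcccgcc

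The match in the WT probe reads TGGTCGCGCCC and that before *Eif3b* reads TGGTACGATCC, starting 52 bases before the annotated start. Promoters (300 bases, 250 of them before the start) of 7 of the 10 members were found in the RefSeq table. Of these, *Eif3a* and *Eif3m* held 1 match each, TGGTTCCTTCC at base 27 after the start on the coding strand and TGGTGAAGGCC at base 31 on the opposite strand. *Eif3c*, *Eif3d*, *Eif3f* and *Eif3g* held none in this window. A match on either strand was present in 13.8% of 32851 promoters of the same length, and in 33.97% of 577 promoters of genes at PRDM10-bound sites, so that the pattern alone is common and its presence here is a description.

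A second sequence feature is the 5′ terminal oligopyrimidine (TOP) tract, a run of C and T at the very start of mRNAs whose translation is controlled with that of ribosomal proteins. *Eif3e*, *Eif3f* and *Eif3h* are known TOP mRNAs. The 30 bases around the annotated start are compared for *Eif3f* and for *Eif3b*, with capitals marking the first 10 transcribed bases.
Eif3f: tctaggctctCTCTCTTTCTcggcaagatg
Eif3b: ggcgcgcggtGACTTCTGGGagtcggaagc

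The run of C and T from the start was 11 bases long in *Eif3f* and 0 in *Eif3b*. *Eif3e* and *Eif3h* had no promoter in the table, so their start was not checked and they are named as TOP mRNAs from general knowledge. The other members with a promoter in the table, *Eif3a*, *Eif3c*, *Eif3d*, *Eif3g* and *Eif3m*, also had a run of 0. A run of 4 or more was found in 6.86% of all promoters and in 25.8% of 66 promoters of ribosomal protein genes. Ribosomal protein mRNAs are TOP mRNAs, so reading from the annotated start missed most of them. A run of 0 therefore does not show that *Eif3b* or another member lacks a tract.

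The total expected count per library, the sum of the read pairs assigned to genes by RSEM, ranged from 35017667 to 41409992. Each member was covered by between 3493 and 33962 reads per library, and all 10 passed the minimum mean in every comparison. Replicate libraries differed by more than sampling noise in each pair, with a chi-square per gene of 3.41 to 11.2 over 11611 to 11616 genes. *Prdm10* itself, counted over the whole gene, was higher in the libraries labelled OHT, at 2172.6 ± 80.3 against 801.0 ± 29.4 normalised counts at Day 2 and 2012.2 ± 67.5 against 869.2 ± 45.8 at Day 4 (SD, n = 3 each). The deleted exon was not counted separately, so this count does not check the deletion, and it goes against the label if taken as the level of the gene. The study reported separate checks of the deletion in cells of this genotype, in genomic DNA, in the transcript of the deleted exon and in the protein. Of 8 markers of the stem cell state, none was under 1 TPM in all 12 libraries and their summed TPM was 2139 to 2178 and 2230 to 2382 at Day 2 and 2099 to 2360 and 2450 to 2546 at Day 4, in EtOH and OHT libraries in turn. Of 8 fibroblast markers, 7 were under 1 TPM in all 12 libraries. Their summed TPM was 2.76 to 3.39 and 2.55 to 3.00 at Day 2 and 2.39 to 3.22 and 1.07 to 1.62 at Day 4, in the same order, and was thus lower in Day 4 OHT without overlap. The part of these marker levels in the results was not tested.

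**Figure D1:**
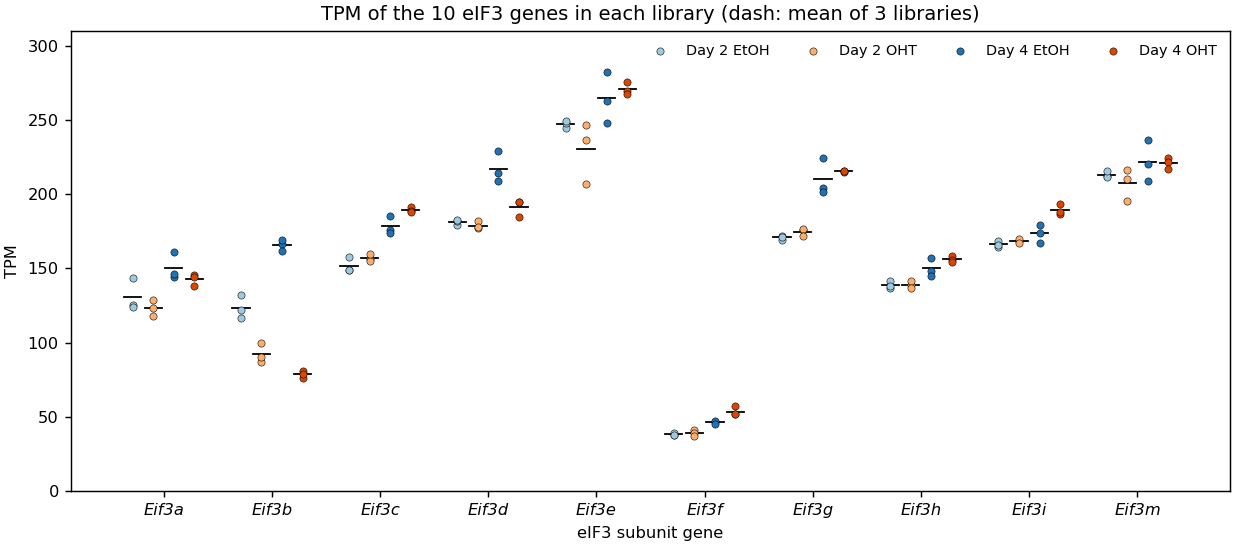
TPM (y axis) of the 10 eIF3 genes (x axis) in the 12 libraries, coloured by group, with a dash at the mean of 3. *Eif3b* is the member whose OHT libraries lie far below the EtOH libraries on both days, and *Eif3f* is the lowest in each group.

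TPM values, in which counts are divided by transcript length and scaled to the same sum in each library, allow one subunit gene to be set beside another in the same library. At Day 2 in EtOH, *Eif3e* was the highest at 247.4 ± 2.5 TPM, followed by *Eif3m* at 213.1 ± 2.2, *Eif3d* at 181.4 ± 1.7, *Eif3g* at 170.9 ± 1.3 and *Eif3i* at 166.1 ± 1.8 (SD, n = 3 each). *Eif3c* had 151.9 ± 4.9, *Eif3h* 138.8 ± 2.2, *Eif3a* 130.9 ± 10.9, *Eif3b* 123.4 ± 8.2 and *Eif3f* 38.1 ± 0.7 TPM. Most neighbours in this order were separate in all libraries, but *Eif3h* overlapped *Eif3a*, and *Eif3a* overlapped *Eif3b*. Although the proteins assemble into one particle, the highest and the lowest subunit genes differed several-fold at the RNA level. *Eif3f* stayed last in all 4 groups and *Eif3e* first.

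*Eif3b* changed place in this order. At Day 4 in EtOH it was at 166.0 ± 3.8 TPM and ranked 6 or 7 of 10, where it overlapped *Eif3i* and was above *Eif3a* and *Eif3h* in each library. At Day 4 in OHT it was at 78.6 ± 2.5 TPM and ranked 9 of 10 in all 3 libraries, far below *Eif3a* at 142.7 ± 3.9 and above only *Eif3f* at 53.4 ± 3.0. At Day 2 it ranked 9 of 10 in both EtOH and OHT libraries.

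To compare libraries with each other, expected counts were scaled by size factors, and these normalised counts were tested with DESeq2. The normalised count of *Eif3b* at Day 2 was 12798, 12694 and 13548 in the 3 EtOH libraries and 8592, 8921 and 10269 in the 3 OHT libraries. The groups did not overlap, and OHT replicate 3 was the highest of its group. The mean fell from 13013 ± 466 to 9260.5 ± 889 (SD, n = 3 each), to 71.2% of the control, with a log2 fold change of -0.49 (SE 0.057, adjusted p by DESeq2 = 1.79e-15). At Day 4 the counts were 15874, 14728 and 15893 in EtOH and 7831, 7511 and 7717 in OHT. Here the groups were wide apart and the OHT libraries were close to each other. The OHT mean was 49.6% of the EtOH mean, with a log2 fold change of -1.01 (SE 0.036, adjusted p by DESeq2 = 8.07e-171). In bulk RNA, fewer cells that express a gene and less of its RNA per cell cannot be told apart.

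*Eif3b* was far out in the distribution of all genes. At Day 4, 106 of 11552 genes tested had a more negative log2 fold change, and 0 of the 560 genes with at least its mean count did. At Day 2, 128 of 11642 genes were more negative, 3 of them among the 564 with at least its mean count. Of the tested genes at PRDM10-bound sites, 102 of 426 at Day 2 and 71 of 424 at Day 4 had a more negative value than *Eif3b*. These places are descriptions, since the gene was singled out by the study partly on these libraries.

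The nearest protein-coding genes showed no fall. *Snx8*, a sorting nexin gene on the opposite strand whose start lies 30066 bases before that of *Eif3b*, had 835.3 ± 42.0 normalised counts in EtOH and 985.4 ± 20.6 in OHT at Day 2, and 844.6 ± 45.6 and 988.0 ± 52.5 at Day 4 (SD, n = 3 each). It rose on both days, with log2 fold changes of 0.24 (SE 0.074, adjusted p by DESeq2 = 0.0125) and 0.22 (SE 0.073, adjusted p = 0.00885). *Gm4869*, which begins 2285 bases after the end of *Eif3b*, had mean normalised counts of 2.31 to 5.15 in the 4 groups, too few to test.

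At Day 2, 5 of the 10 members were called lower and 0 higher by DESeq2. Across all genes tested, 10.6% were called lower and 9.17% higher. With all 6 libraries, 1238 genes were called lower and 1068 higher, and each fit without 1 library called fewer. Those called lower then numbered 586 to 1101 and those called higher 615 to 1035. The fewest were 586 and 615 without EtOH replicate 1, then 711 and 698 without EtOH replicate 2. In these fits, an effect of the library left out cannot be told apart from that of having fewer libraries. No member had an unadjusted p under 0.05 in the higher direction, and edgeR also called 0 higher. The share of calls that were higher over all genes was 46.3% here, 68.5% when libraries were scaled by total counts and 82.2% on log2(TPM + 1). Besides *Eif3b*, the called members changed little. *Eif3e*, a PCI subunit of the core, had 16175, 16138 and 15904 normalised counts in EtOH and 14838, 14426 and 13259 in OHT, with a log2 fold change of -0.18 (SE 0.045, adjusted p by DESeq2 = 0.00102). The scaffold gene *Eif3a* had -0.17 (SE 0.048, adjusted p = 0.0060), *Eif3d* had -0.11 (SE 0.038, adjusted p = 0.0206) and *Eif3m* had -0.11 (SE 0.039, adjusted p = 0.0409). The remaining 5 were between -0.084 for *Eif3h* and -0.029 for *Eif3c*, and did not pass the test. The median over the 10 members was -0.095, beside -0.028 over all genes tested and -0.083 over 76 ribosomal protein genes.

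The Day 2 calls other than that of *Eif3b* depended on the settings. Of 16 alternatives, the call of *Eif3m* was lost in 13, that of *Eif3d* in 10, that of *Eif3a* in 4 and that of *Eif3e* in 2, whereas *Eif3b* was called in all 16. Without EtOH replicate 1, EtOH replicate 2 or OHT replicate 2, 3 members were called lower, and without OHT replicate 1 only 2. With the replicate number as a block, 3 members were called lower. By normalised counts, all OHT libraries were below all EtOH libraries in 6 of 10 members, beside 26.9% of all genes tested, and the reverse held for 0 members and 18.7% of all genes tested.

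**Figure D2:**
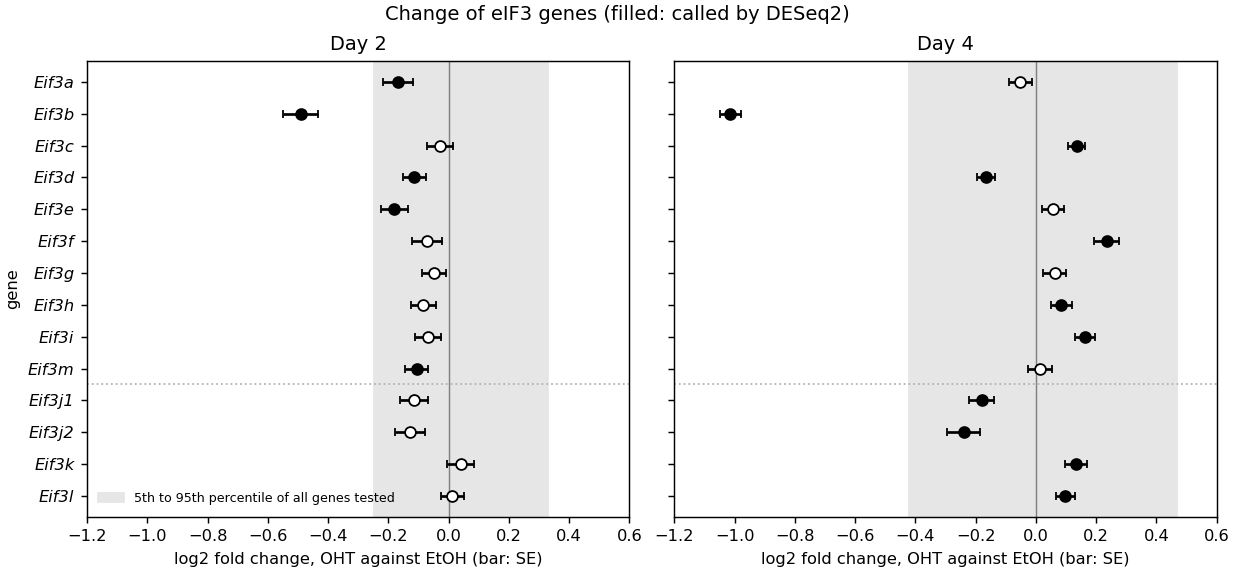
Log2 fold change of OHT against EtOH (x axis, bar: SE) for the 10 members and, below the dotted line, the other 4 genes of the complex (y axis), at Day 2 and Day 4, with filled points called by DESeq2 and a grey band from the 5th to the 95th percentile of all genes tested. *Eif3b*, at -0.49 and -1.01, is the only one outside the band.

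At Day 4 the members split. In the libraries labelled OHT, *Eif3b* and *Eif3d* were lower and *Eif3c*, *Eif3f*, *Eif3h* and *Eif3i* were higher, whereas *Eif3a*, *Eif3e*, *Eif3g* and *Eif3m* did not pass the test. Thus 2 of 10 were called lower and 4 higher, when 21.6% of all genes tested were called lower and 23.5% higher. The median over the members was 0.060, beside 0.0061 over all genes tested. By normalised counts, all OHT libraries were below all EtOH libraries in 2 members, as in 29.5% of all genes tested, and above them in 4, as in 33.5%.

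In the PCI/MPN core, *Eif3f* rose most. Its normalised counts were 4319, 4323 and 4422 in EtOH and 4990, 4989 and 5418 in OHT, so that the lowest OHT library was above the highest EtOH library. The log2 fold change was 0.24 (SE 0.041, adjusted p by DESeq2 = 1.66e-07). *Eif3h*, the other MPN subunit, had 7370.1 ± 215 in EtOH and 7823.4 ± 157 in OHT (SD, n = 3 each), and its log2 fold change of 0.084 was at the edge of the threshold (SE 0.035, adjusted p by DESeq2 = 0.0499). This call was lost in 9 of 16 alternatives, among them each fit without EtOH replicate 2, EtOH replicate 3, OHT replicate 1 or OHT replicate 2. The PCI genes *Eif3e* and *Eif3m* had log2 fold changes of 0.057 (SE 0.037) and 0.014 (SE 0.039), with overlapping groups.

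Of the scaffolds, *Eif3c* had 23480, 22396 and 22590 normalised counts in EtOH and 25268, 25343 and 24711 in OHT. The groups did not overlap and the log2 fold change was 0.14 (SE 0.029, adjusted p by DESeq2 = 2.12e-05). Its partner *Eif3a* had -0.051 (SE 0.037, adjusted p = 0.310), with 34751, 30959 and 32434 normalised counts in EtOH and 32244, 31037 and 31584 in OHT, and its groups overlapped.

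In the module of *Eif3b*, the partner genes did not fall with it. *Eif3i*, which encodes a WD40 repeat protein, had 7359, 7090 and 7029 normalised counts in EtOH and 8171, 8017 and 7895 in OHT, a log2 fold change of 0.16 (SE 0.034, adjusted p by DESeq2 = 1.38e-05). *Eif3g*, which encodes an RNA-binding protein, had 9048, 8208 and 8375 in EtOH and 8968, 9031 and 8814 in OHT. Its groups overlapped because EtOH replicate 1 was as high as the OHT libraries, and its log2 fold change of 0.063 (SE 0.038, adjusted p by DESeq2 = 0.212) did not pass the test. Without EtOH replicate 1 both *Eif3g* and *Eif3e* were called higher, which made 6 members higher.

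*Eif3d*, the cap-binding subunit gene, was the other member that fell at Day 4. Its normalised counts were 16473, 15620 and 15549 in EtOH and 14191, 14119 and 14240 in OHT. The OHT mean was 89.3% of the EtOH mean, with a log2 fold change of -0.17 (SE 0.031, adjusted p by DESeq2 = 9.44e-07), and the call was made in all 16 alternatives. Its change was thus several times smaller on the log2 scale than that of *Eif3b*.

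The change from Day 2 to Day 4 was tested as an interaction over all 12 libraries, in which 18.7% of genes were called with a positive difference and 13.6% with a negative one. The positive share of the calls was 58.0%, 44.2% when scaled by total counts and 23.1% on log2(TPM + 1), which moved the median of all genes by -0.11. The OHT effect on *Eif3b* was more negative at Day 4 by 0.52 on the log2 scale (difference -0.52, SE 0.077, adjusted p by DESeq2 = 6.35e-10). Of the other members, 5 had a more positive OHT effect at Day 4, from 0.17 for *Eif3c* (SE 0.050, adjusted p = 0.00623) and *Eif3h* (SE 0.047, adjusted p = 0.00236) to 0.31 for *Eif3f* (SE 0.062, adjusted p = 8.78e-06). *Eif3i* had 0.23 (SE 0.048) and *Eif3e* 0.24 (SE 0.062). On log2(TPM + 1) none of these 5 was called, and without Day 4 EtOH replicate 1 there were 8 with a more positive effect. The 3 members named as TOP mRNAs were all among the 5. Of the 6 members that are neither these nor *Eif3b*, 2 were called as well, *Eif3c* and *Eif3i*. Over the 76 ribosomal protein genes, which are TOP mRNAs too, 72 were called with a positive difference and 1 with a negative one, at a median of 0.28. Over 29 other initiation factors, 7 were called with a positive difference and 5 with a negative one. The lowest of these was *Pabpc1* at -0.38 (SE 0.083). A part of the TOP tract in these differences was not tested.

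The same counts can be read along time within one treatment, and these comparisons share their libraries with those above. In EtOH, *Eif3b* rose from 13013 ± 466 to 15498 ± 667 normalised counts (log2 fold change 0.25, SE 0.040, adjusted p by DESeq2 = 8.63e-09), together with *Eif3g* at 0.16 (SE 0.041), *Eif3f* at 0.15 (SE 0.042) and *Eif3d* at 0.11 (SE 0.034). These 4 members were called higher, beside 20.6% of all genes tested. None was called lower by DESeq2 or edgeR, although 2 had an unadjusted p under 0.05 in that direction, and 20.5% of all genes tested were called lower. Without Day 4 EtOH replicate 1, 2 members, *Eif3i* and *Eif3m*, were called lower. Over the 76 ribosomal protein genes, 62 were called lower and 0 higher, at a median of -0.14, whereas the TOP mRNA *Eif3f* was called higher. On log2(TPM + 1) the median of all genes was 0.11 and 81.1% of all calls were higher, against 50.1% in DESeq2. Besides this alternative, TPM was therefore read between days only through the order and the ratios within libraries.

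In OHT, 7 of 10 members were called higher at Day 4 than at Day 2 and *Eif3b* alone was called lower, when 30.8% of all genes tested were called higher and 23.0% lower. *Eif3b* fell from 9260.5 ± 889 to 7686.3 ± 162 (log2 fold change -0.27, SE 0.054, adjusted p by DESeq2 = 4.96e-06). *Eif3f* rose most, at 0.47 (SE 0.049, adjusted p = 1.44e-20), followed by *Eif3g* at 0.28 (SE 0.036) and *Eif3c* at 0.24 (SE 0.039). *Eif3e*, *Eif3a*, *Eif3i* and *Eif3h* had 0.21, 0.19, 0.16 and 0.15. Thus the distance between EtOH and OHT in *Eif3b*, already present at Day 2, widened by Day 4 with a rise in EtOH and a fall in OHT.

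**Figure D3:**
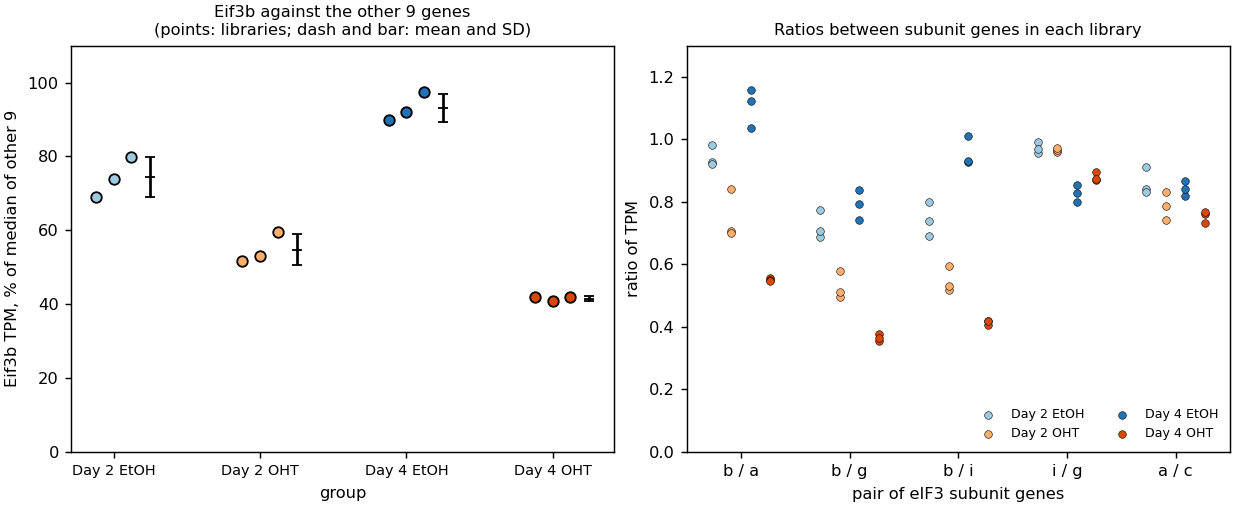
Left, *Eif3b* TPM as a percentage of the median TPM of the other 9 members (y axis) in each library by group (x axis), with the mean and SD. Right, ratios of TPM between pairs of subunit genes (y axis) for each pair (x axis), coloured by group. *Eif3b* is between 40.7% and 42.0% of the median at Day 4 in OHT, and each ratio with *Eif3b* on top is lowest there.

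The balance of the subunits was described by the ratio of *Eif3b* to the median TPM of the other 9 members in the same library, which does not depend on how libraries are scaled. At Day 2 the *Eif3b* level was 69.1%, 73.9% and 79.96% of that median in EtOH and 51.6%, 53.0% and 59.5% in OHT. At Day 4 it was 89.9%, 91.9% and 97.3% in EtOH and 42.0%, 40.7% and 41.8% in OHT. The groups did not overlap on either day. On the log2 scale the ratio was -0.43 ± 0.11 in EtOH and -0.87 ± 0.11 in OHT at Day 2, and -0.10 ± 0.06 and -1.27 ± 0.02 at Day 4 (SD, n = 3 each), a difference of -0.44 and of -1.16. These differences rest on values already tested above and were given no test of their own.

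Pair by pair, the ratio of *Eif3b* to *Eif3g* in TPM was 0.792 ± 0.048 in EtOH and 0.365 ± 0.011 in OHT at Day 4, and that to *Eif3i* was 0.957 ± 0.048 and 0.415 ± 0.007 (SD, n = 3 each). The ratio of *Eif3i* to *Eif3g*, the partners of *Eif3b* in the module, was 0.828 ± 0.026 and 0.879 ± 0.014 in the same libraries. The ratio of the scaffolds *Eif3a* and *Eif3c* was 0.842 ± 0.025 and 0.753 ± 0.018. Both of these pairs without *Eif3b* thus moved by far less than those that held it.

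As a share of the summed TPM of the 10 members, *Eif3b* made up 7.90% ± 0.38 in EtOH and 6.12% ± 0.58 in OHT at Day 2, and 9.34% ± 0.49 and 4.60% ± 0.09 at Day 4 (SD, n = 3 each). *Eif3d* went from 12.2% ± 0.04 to 11.2% ± 0.24 at Day 4, whereas *Eif3c* went from 10.04% ± 0.12 to 11.1% ± 0.08 and *Eif3i* from 9.77% ± 0.16 to 11.1% ± 0.06. The sum itself was 1779 ± 80 TPM in EtOH and 1709 ± 22 in OHT at Day 4, with overlapping libraries. Among the other 9 members, the log2 TPM of a Day 4 OHT library lay between -0.23 and 0.30 from the EtOH mean of the same gene, while that of *Eif3b* lay between -1.13 and -1.03.

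The remaining genes of the complex were tested in the same way and were left out of the order and the balance above. Mean TPM of *Eif3k* was 232.4 and 252.9 at Day 2 and 283.1 and 304.6 at Day 4, in EtOH and OHT in turn. It was above that of *Eif3e* in each group but Day 2 EtOH. *Eif3j1* and *Eif3j2* had lower mean TPM than *Eif3f* in each group. *Eif3k* and *Eif3l* encode PCI subunits at the edge of the core, and *Eif3j1* and *Eif3j2* encode the loosely held subunit. At Day 2, DESeq2 called 0 of these 4, with 2 at an unadjusted p under 0.05, which edgeR called lower (*Eif3j1* and *Eif3j2*). At Day 4, *Eif3k* and *Eif3l* were called higher, at 0.13 (SE 0.036, adjusted p by DESeq2 = 0.00117) and 0.097 (SE 0.032, adjusted p = 0.00966), and *Eif3j1* and *Eif3j2* lower, at -0.18 (SE 0.041, adjusted p = 7.53e-05) and -0.24 (SE 0.055, adjusted p = 7.56e-05). *Eif3j1* and *Eif3j2* are near-identical copies that share reads, with a posterior SD of up to 60.5 counts from the split, so their values are uncertain one by one. For the 10 members this SD was 2.25 counts or less, and 0 for *Eif3b*. The pseudogenes *Eif3s6-ps1*, *Eif3s6-ps2*, *Eif3s6-ps3* and *Eif3s6-ps4*, copies of *Eif3e*, had between 0 and 17.0 counts per library.

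Other initiation factors were compared from a list of 29 genes. At Day 2, 7 were called lower and 3 higher, with a median of -0.066, beside 10.6% and 9.17% of all genes tested. At Day 4, 10 were called lower and 5 higher, with a median of -0.058, beside 21.6% and 23.5% of all genes tested. The largest Day 4 changes among those called were in *Eif4g3*, which encodes a scaffold of the cap-binding complex, at 0.63 (SE 0.074, adjusted p by DESeq2 = 2.54e-16), in *Denr*, which encodes a factor for ribosome recycling and reinitiation, at -0.27 (SE 0.044, adjusted p = 8.21e-09), and in *Eif2b1*, which encodes a subunit of the exchange factor of eIF2, at -0.27 (SE 0.051, adjusted p = 1.42e-06). At Day 4 all 29 lay between -0.27 and 0.63, with *Eif3b* outside this range.

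**Figure D4:**
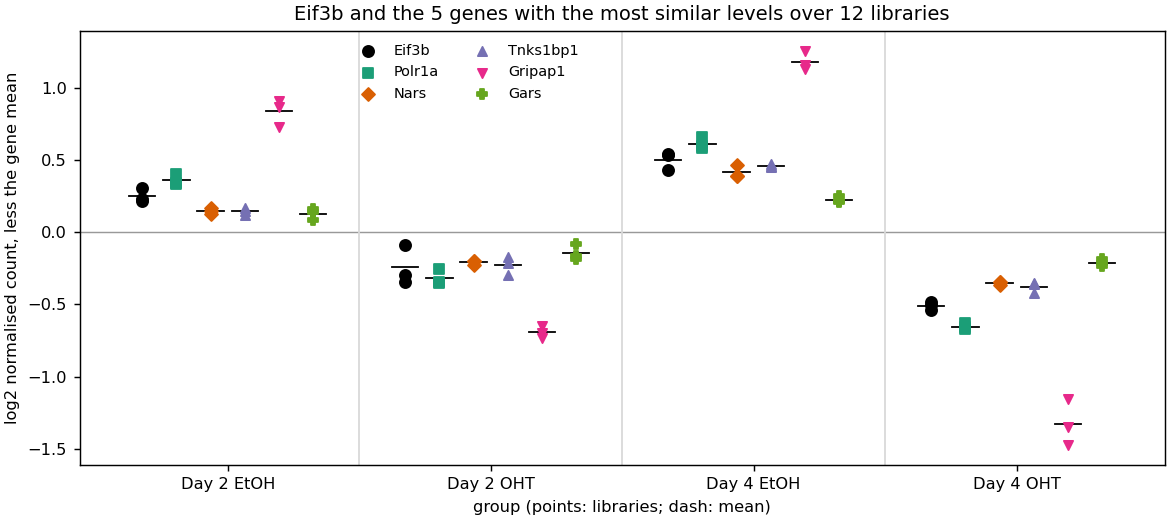
Log2 normalised count less the mean of the gene (y axis) of *Eif3b* and of the 5 genes with the highest Pearson correlation with it, in the 12 libraries by group (x axis), with a dash at the mean of 3. Each gene is higher in EtOH than in OHT on both days and highest in EtOH at Day 4.

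The pattern of *Eif3b* over the 12 libraries, lower in OHT on both days and higher at Day 4 than at Day 2 in EtOH, was compared with that of 11606 other genes. The 5 with the highest Pearson correlation of log2 normalised counts were *Polr1a* (r = 0.986), the gene of the largest RNA polymerase I subunit, *Nars* (0.982) and *Gars* (0.979), which encode the asparaginyl and glycyl tRNA synthetases, *Tnks1bp1* (0.981) and *Gripap1* (0.980). *Polr1a* and *Gripap1* are on the list of PRDM10-bound genes and the other 3 are not. *Polr1a* had 8347.5 ± 235 normalised counts in EtOH and 3473.4 ± 50.7 in OHT at Day 4 (SD, n = 3 each). *Gripap1* had 401.2 ± 18.3 and 70.5 ± 8.0, so that its fall was larger than that of *Eif3b*, and *Gars* had 16204 ± 221 and 11970 ± 201, a smaller one. The 12 libraries fall into 4 groups, so that the correlations describe a common pattern between 4 groups and are given no p.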

How the data were processed

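Paired-end total RNA reads of 12 libraries were aligned by the authors with STAR 2.6.0c to GRCm38.p6 and quantified with RSEM on GENCODE models, per the submitters' processing notes and the study's methods. The deposited gene files hold expected counts made by the authors with RSEM and TPM, as well as lengths, posterior SDs and TPM interval bounds per library, of which the bounds were not reported. The deposited comparison tables hold the authors' DESeq2 (1.22.2) results, of which only the gene symbols were used. Here expected counts were rounded and each comparison was tested with DESeq2 1.42.0 (R 4.3.3, Wald test, Benjamini-Hochberg adjustment), and a call needed a mean normalised count above 100 besides an adjusted p below 0.05. The test was tried on simulated data with known changes first. edgeR 4.0.16, limma 3.58.1 on log2(TPM + 1) with a mean TPM above 1, other scalings, effective length offsets, a length trend (loess, span 0.3), the replicate block and leaving out each library were alternatives. TPM ratios were taken within libraries, and TPM levels set side by side between groups were given no test. Levels of normalised counts were printed from size factors over all 12 libraries. Named genes were the members, the other genes of the complex, *Prdm10*, genes whose symbol starts with Eif3, the neighbours of *Eif3b*, the 5 genes most correlated with it and 29 initiation factors. The members and lists were chosen with earlier results of these data known. Coordinates are from GENCODE vM21 and promoters from RefSeq, both on GRCm38. Of 3 trophectoderm and 8 germ layer markers, 2 and 8 were under 1 TPM in all libraries, with summed TPM of 3.99 to 5.50 and 1.85 to 2.98.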

Additional observations from a re-analysis of the deposited data

Results flagged for a closer look

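The OHT against EtOH change differed between the days, by the interaction test over 12 libraries, in 6 of the 10 members. Of these differences 5 were positive and 1 was negative, beside 18.7% and 13.6% of all genes tested. On log2(TPM + 1), 0 members were called with a positive difference and 2 with a negative one. The Day 4 minus Day 2 difference in log2 fold change was -0.52 for *Eif3b*, 0.17 for *Eif3c*, 0.24 for *Eif3e*, 0.31 for *Eif3f*, 0.17 for *Eif3h* and 0.23 for *Eif3i*. *Eif3b* thus moved further down while the other 5 moved up relative to Day 2. Groups of 3 libraries were not tested for single outlying libraries.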

How the results depend on the processing

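*Eif3b* kept its direction and its call in all comparisons under every alternative run. No pairing of the same-numbered libraries was clear. The correlations of their deviations ran from -0.03 to 0.11 at Day 2 and from -0.25 to 0.16 at Day 4. On these days, 0 and 1 of 3 libraries correlated best with their own number. The labels give no shared batch, so the replicate block stands as an alternative only. With 3 libraries a group, such correlations cannot exclude samples that were split or handled together. With the replicate block, 3 members were called lower at Day 2, and with the block and the length trend removed 2. At Day 2, members called lower numbered 3 with edgeR, 2 with total counts, 3 with the length trend removed and 1 with limma on log2(TPM + 1), and 2 to 5 without each library. At Day 4, 2 members were called higher on log2(TPM + 1). From Day 2 to Day 4 in EtOH, 0 to 2 members were called lower without each library. In the difference between the days, 2 were called with a negative difference under total counts and under log2(TPM + 1), where 0 were called with a positive one, and 5 to 8 were positive without each library. Over all genes, 1238 were called lower at Day 2, against 586 without EtOH replicate 1, 711 without EtOH replicate 2, 638 with total counts, 636 with the replicate block and 215 on log2(TPM + 1), which also gave 1050 rather than 2371 lower and 4501 rather than 2378 higher from Day 2 to Day 4 in EtOH, and 708 rather than 2173 positive differences between the days. The balance difference at Day 4 was -1.11 against the geometric mean of the other 9. Uncalled values near 0 changed sign. At Day 2 *Eif3c* had 0.0088 with total counts, 0.047 on log2(TPM + 1) and -0.070 to 0.0029 without each library. On log2(TPM + 1), *Eif3f*, *Eif3g*, *Eif3h* and *Eif3i* had 0.024, 0.032, 0.0026 and 0.022 at Day 2. With the length trend removed *Eif3g* had 0.023 and *Eif3i* 0.0025, and with the block as well 0.022 and 0.0022. *Eif3l* had -0.0011 to 0.026 without each library. At Day 4 *Eif3m* had -0.0036 on log2(TPM + 1) and -0.016 to 0.058 without each library. From Day 2 to Day 4 in EtOH, *Eif3e*, *Eif3h*, *Eif3i* and *Eif3m* had 0.095, 0.11, 0.063 and 0.056 on log2(TPM + 1). In OHT *Eif3m* had -0.010 with the length trend removed and -0.010 with the block as well. In the difference between the days *Eif3j1* had 0.017 with the length trend removed and 0.017 with the block as well, and on log2(TPM + 1) *Eif3k* had -0.015 and *Eif3l* -0.024. The cause was not tested. With 3 libraries a group, changes of a few percent were at the limit of what the test could call.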
